A study of Mus musculus with 32 samples.

Results

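The proteasome is the protease that degrades ubiquitin-tagged proteins, and 48 genes of its subunits, activators and assembly chaperones were measured in livers of Gclc KO and Gclc WT mice. The members were all genes with a Psma to Psmg symbol and number and a mean of at least 1 TPM (a transcript's share of a library, corrected for transcript length and given on a common scale) over the 8 mice, without pseudogenes and without an interacting protein. They were 48 of the 49 genes so named, among 11284 genes at that level and 20821 in all. Psmb11, a thymus-specific catalytic subunit, averaged 0.0031 TPM and was left out. Gclc KO mice carried floxed Gclc alleles (Gclc f/f) and Rosa26-CreERT2, a tamoxifen-inducible recombinase expressed in the whole body. Gclc WT mice carried Gclc f/f without the recombinase. All were adult, were injected intraperitoneally with tamoxifen at 150 mg/kg for 5 days, and gave their livers 14 days later. There were 4 mice of each genotype and 4 mRNA libraries of each mouse, 32 in all. No mice with CreERT2 and unfloxed Gclc were among them, so the loss of Gclc and any effect of the recombinase cannot be told apart.

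Gclc is the catalytic subunit of glutamate-cysteine ligase, the enzyme at the first step of glutathione synthesis. The proteasome consists of a barrel, the 20S core, made of outer rings of alpha subunits and inner rings of beta subunits, and of a cap, the 19S regulatory particle, which binds, unfolds and feeds in substrates. Only Psmb5, Psmb6 and Psmb7 of the constitutive beta subunits cut protein, with chymotrypsin-like, caspase-like and trypsin-like activity. Interferon-gamma induces Psmb8, Psmb9 and Psmb10, which take their places in the immunoproteasome, a form abundant in immune cells that makes peptides for MHC class I. In mammalian cells, NFE2L1 (NRF1) raises proteasome genes when the proteasome is impaired, and NFE2L2 (NRF2) can raise some of them under oxidative stress.

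Gclc was at 26.9, 16.1, 18.6 and 26.8 TPM in Gclc KO mice 1 to 4, against 82.3, 114.1, 77.8 and 138 TPM in Gclc WT mice 1 to 4. It was lower in every Gclc KO mouse (log2 fold change -2.17 ± 0.23 SE, adjusted p = 0.00061). All 6 NRF2 target genes listed as a check of the genotype were higher in Gclc KO livers, and the heme-degrading enzyme Hmox1 had the smallest p (log2 fold change 3.07, adjusted p = 9.43e-05). Fold changes here are Gclc KO over Gclc WT of log2(TPM + 1), which understates changes of low genes, and were tested with limma on the mean of the 4 libraries of a mouse. A gene was called at a Benjamini-Hochberg adjusted p of at most 0.05 over the 11284 genes.

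The libraries held 12341 to 14016 genes above 0, and their depth is unknown. Summed Kupffer cell markers (10 genes of the liver's resident macrophages) were at 863.6 to 1448 TPM in Gclc KO mice and 300.5 to 823.4 TPM in Gclc WT mice, and 5 of the 10 were called higher. Summed leukocyte markers (5 genes) were at 47.5 to 79.3 TPM in Gclc KO mice and 20.9 to 59.6 TPM in Gclc WT mice, and monocyte and neutrophil markers (8 genes) at 142 to 269 TPM in Gclc KO mice and 79.5 to 467 TPM in Gclc WT mice. The highest value of the last list was that of Gclc WT 3. T cell markers reached 2.67 TPM in Gclc KO mice and 4.90 TPM in Gclc WT mice, and B cell markers 1.80 TPM in Gclc KO mice and 2.21 TPM in Gclc WT mice, so these cells' defining genes were near 0. Pancreatic enzyme genes summed to 6.07 to 7.33 TPM in Gclc KO mice and to 13.6 to 296 TPM in Gclc WT mice, with the highest value in Gclc WT 1. In Gclc WT mice 2 to 4 these sums were those of Cela1 alone, at 29.2, 13.55 and 37.0 TPM. Pnlip, Prss2, Cel, Amy2a5, Cpa1 and Ctrb1 were at 0 TPM in those mice. Of the 7 genes tested, only Cela1 was called, and it was lower (log2 fold change -2.12, adjusted p = 0.0050). Hepatocyte markers (5 genes) had the highest sums of these lists in every mouse, at 82250 to 141600 TPM in Gclc KO mice and 66440 to 93220 TPM in Gclc WT mice. Only Fgb of the 5 was called higher (log2 fold change 1.32, adjusted p = 0.035), and Alb was not called (0.56, adjusted p = 0.24). Serpina1a (-0.35), Apoa1 (-0.17) and Ttr (-0.03) had negative values, and the median of the list was -0.03. Xist, the transcript of an inactive X chromosome, was above 1 TPM in Gclc KO 2, Gclc KO 3 and Gclc WT 3 only. The Y chromosome gene Ddx3y was at 0 TPM in these mice and at 22.6 to 32.7 TPM in the others. Xist thus parted the mice by sex, unevenly between the genotypes. The part of these differences in the results was not tested. In whole liver, fewer cells of a type and less RNA per cell cannot be told apart.

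Of the 48 proteasome genes, 6 were higher in Gclc KO livers and none was lower. They were the core subunits Psmb5 and Psmb4, the cap subunits Psmd11, Psmc4 and Psmc1, and the cap chaperone Psmd5, with rises of 1.31-fold to 1.64-fold. The 6 were 12.5% of the family, and among all genes tested 12.8% were called higher, 8.61% lower and 21.4% in either direction, so the share called higher was close to that of all genes. By limma, 9 of the 48 members were higher and 0 lower at an unadjusted p under 0.05. Among all 11284 genes tested, 2541 were higher and 1558 lower at that level, so the members' share higher was not above that of all genes. The log2 fold change was positive for 39 of 48 members (81.3%), against 59.9% of all genes, and its median was 0.19, against 0.09 for all genes. In 8 members every Gclc KO mouse stood above every Gclc WT mouse, namely the 6 called ones with Psmd8 and Psmd10, and in none was the order opposite. Among all genes, the first pattern held for 14.5% and the second for 10.2%. After scaling by a trimmed mean or by the median of ratios, 6 members were again higher and 0 lower, while all genes split into 1279 higher and 1407 or 1401 lower, against 1439 higher and 972 lower on TPM as deposited.

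**Figure D1:**
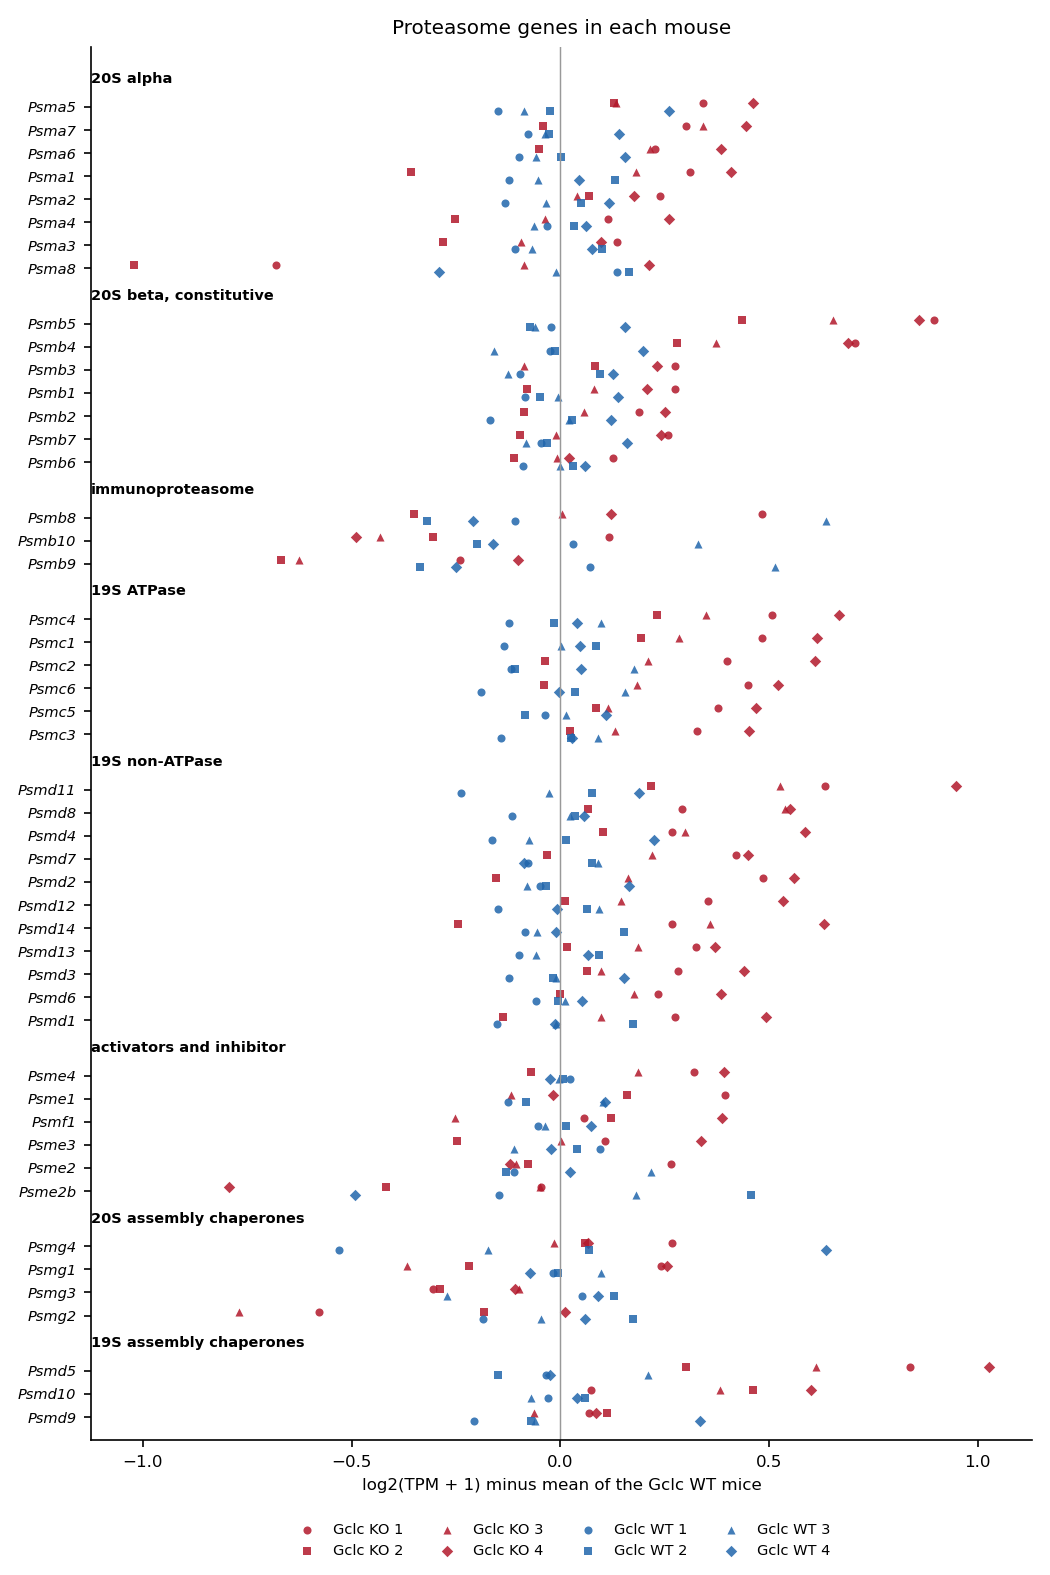
Level of each of the 48 proteasome genes in each mouse, as log2(TPM + 1) minus the mean of the Gclc WT mice (horizontal axis), by class and in order of fold change. Red points are Gclc KO mice and blue points Gclc WT mice, with a symbol for each mouse number. Gclc KO 4 and Gclc KO 1 lie farthest right in most core and cap genes, and Gclc KO 2 lies among the Gclc WT mice in many of them.

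Within each genotype, the same mouse was the highest, and the same mouse the lowest, in most core and cap genes. Among the 31 constitutive core and cap genes other than Psma8, Gclc KO 4 was the highest of the Gclc KO mice in 23 and Gclc KO 1 in 8. Gclc KO 2 was the lowest in 29. Among the Gclc WT mice, Gclc WT 4 was the highest in 19 and Gclc WT 1 the lowest in 23. Gclc KO 1 and Gclc KO 4 were also the Gclc KO mice without Xist. Gclc KO 1 and Gclc KO 4 were above the Gclc WT mean in all 31 genes, Gclc KO 3 in 26 and Gclc KO 2 in 15. The median SD of these genes was 0.19 among Gclc KO mice and 0.11 among Gclc WT mice (log2 scale, n = 4 each), and 29 of the 31 had the larger SD in Gclc KO mice. Over all genes the SDs were alike, with medians of 0.21 among Gclc KO mice and 0.20 among Gclc WT mice. After scaling by a trimmed mean, the medians for the 31 genes were 0.13 among Gclc KO mice and 0.12 among Gclc WT mice. The scaling factors were largest for Gclc KO 4, at 0.16 on the log2 scale, and lowest for Gclc WT 1, at -0.13.

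Psmb5 is the chymotrypsin-like catalytic subunit and the main target of the drug bortezomib. It was at 190, 138, 161 and 186 TPM in Gclc KO mice 1 to 4, against 100, 96.7, 97.6 and 113 TPM in Gclc WT mice 1 to 4. The lowest Gclc KO mouse was above the highest Gclc WT mouse. The rise was 1.64-fold (log2 fold change 0.71 ± 0.13 SE, 95% interval 0.42 to 1.00, adjusted p = 0.0058). Psmb5 was the only member called under every one of 21 alternative ways of processing, with log2 fold changes of 0.63 to 0.86. Single libraries ran from 127 to 147 TPM in Gclc KO 2 and from 98.7 to 129 TPM in Gclc WT 4, the nearest mice of the genotypes.

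The other constitutive catalytic subunits were not called. Psmb6, the caspase-like subunit, averaged 134 ± 9.17 TPM in Gclc KO mice and 133 ± 5.91 TPM in Gclc WT mice (SD, n = 4 each). Its log2 fold change was 0.01, with a 95% interval of -0.21 to 0.23. Psmb7, the trypsin-like subunit, averaged 196 ± 24.2 TPM in Gclc KO mice and 182 ± 14.3 TPM in Gclc WT mice, with a log2 fold change of 0.10 and an interval of -0.18 to 0.37. The genotypes overlapped for both, and the difference of either from Psmb5 was not tested.

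Psmb4, a noncatalytic beta subunit, was at 276, 205, 219 and 273 TPM in Gclc KO mice 1 to 4, against 166, 167, 151 and 194 TPM in Gclc WT mice 1 to 4. Every Gclc KO mouse was higher, by 1.43-fold on average (log2 fold change 0.51 ± 0.14 SE, adjusted p = 0.029). The call was lost on leaving out any of Gclc KO 1, Gclc KO 4, Gclc WT 1, Gclc WT 2 or Gclc WT 3 (adjusted p of 0.0519 to 0.0775). Psmb1 had the third smallest p of the constitutive beta genes, and its log2 fold change was 0.12 (adjusted p = 0.48). All 7 constitutive beta genes had positive values on TPM as deposited, although that of Psmb6 became -0.08 after either scaling.

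None of the 8 alpha genes was called, and none had an unadjusted p under 0.05 by limma. Alpha subunits form the gated outer rings of the barrel. Psma5 averaged 86.8 ± 10.04 TPM in Gclc KO mice and 72.1 ± 9.61 TPM in Gclc WT mice (log2 fold change 0.27, adjusted p = 0.17), and Psma7 178 ± 24.7 TPM in Gclc KO mice and 147 ± 10.2 TPM in Gclc WT mice (0.26, adjusted p = 0.17). Psma6 had a log2 fold change of 0.19 (adjusted p = 0.29) and Psma4 of 0.02 (adjusted p = 0.92). The negative values were those of Psma3 (-0.03) and Psma8 (-0.39), named here because they were the exceptions. Psma8, a testis-specific relative of Psma7, was near the minimum, at 0.80 ± 0.68 TPM in Gclc KO mice and 1.25 ± 0.31 TPM in Gclc WT mice, and reads may be split between it and Psma7. Over the 15 constitutive core genes the median log2 fold change was 0.13, with 13 positive values. Of these genes, 2 were called higher (13.3%, against 12.8% of all genes). After either scaling the median was 0.04, with 11 positive values.

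All 17 Psm-named genes of the cap had positive log2 fold changes, from 0.18 to 0.58 with a median of 0.26, and 3 of them were called higher (17.6%, against 12.8% of all genes). Shfm1 (Sem1), a lid subunit without such a symbol and so not among the 48, had a negative value (-0.36). The sign was the same for all 17 in each of the 21 alternatives, and after scaling by a trimmed mean the median was 0.18. In 4 of these cap genes the genotypes did not overlap (Psmd11, Psmd8, Psmc4 and Psmc1), an order that 14.5% of all genes had. The cap genes summed to 1864, 1466, 1703 and 2099 TPM in Gclc KO mice 1 to 4, against 1308, 1455, 1454 and 1492 TPM in Gclc WT mice 1 to 4. Gclc KO 2 thus stood within the range of the Gclc WT mice. The sum of the 15 constitutive core genes was 1886 to 2438 TPM in Gclc KO mice and 1812 to 2097 TPM in Gclc WT mice, with more overlap. The mean log2 value of the cap minus that of the core was -0.18 to -0.08 in Gclc KO mice and -0.35 to -0.22 in Gclc WT mice, without overlap. Without Psma8 it was -0.64 to -0.49 in Gclc KO mice and -0.76 to -0.61 in Gclc WT mice, so that the genotypes overlapped.

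**Figure D2:**
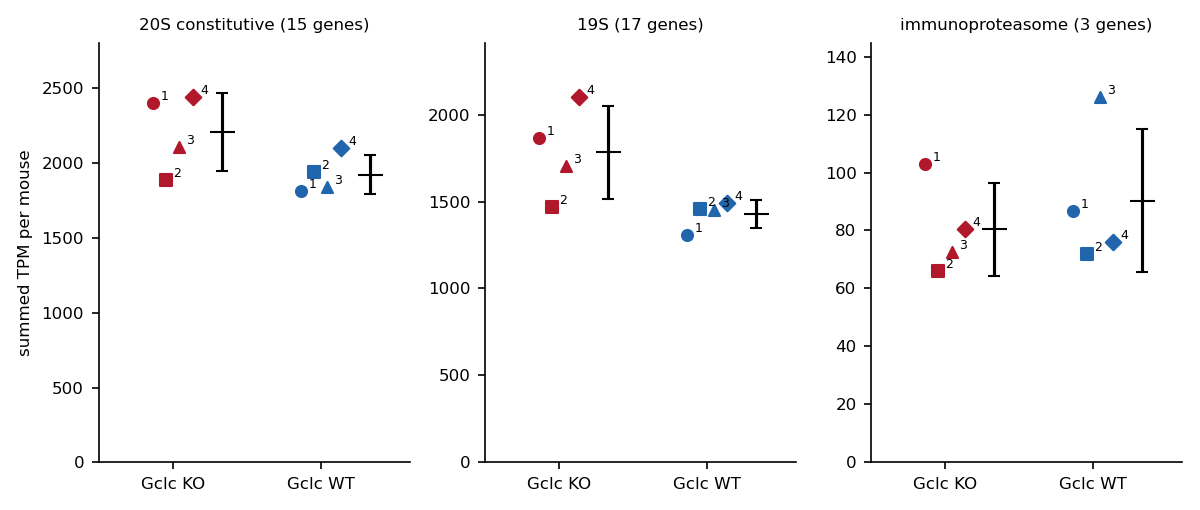
Summed TPM per mouse of the 15 constitutive core genes, the 17 cap genes and the 3 immunoproteasome genes, with Gclc KO mice in red and Gclc WT mice in blue. Numbers mark the mice, and bars show the mean and SD of 4 mice. The cap sums of Gclc KO mice 1, 3 and 4 are above all Gclc WT mice, and Gclc WT 3 has the highest immunoproteasome sum, at 126 TPM.

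Within the cap, the ring of ATPases that unfolds substrates had 2 of 6 genes called higher (33.3%, against 12.8% of all genes). Psmc4 was at 139, 115, 124.4 and 155 TPM in Gclc KO mice 1 to 4, against 89.4, 96.3, 104 and 100 TPM in Gclc WT mice 1 to 4 (log2 fold change 0.44 ± 0.12 SE, adjusted p = 0.030). Psmc1 averaged 166 ± 22.2 TPM in Gclc KO mice and 125 ± 8.26 TPM in Gclc WT mice (0.39 ± 0.12 SE, adjusted p = 0.046). All Gclc KO mice were above all Gclc WT mice for both genes. The call of Psmc1 was close to the threshold and was lost without any 1 mouse except Gclc KO 2, and that of Psmc4 without any 1 of 6 mice. With the replicate number as a block, Psmc4 had an adjusted p of 0.0615 and Psmc1 of 0.0926. Psmc5 had a log2 fold change of 0.26 (adjusted p = 0.14) and Psmc3 of 0.23 (adjusted p = 0.20).

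The remaining cap genes encode scaffold, ubiquitin-binding and deubiquitinating subunits, and 1 of 11 was called higher (9.09%, against 12.8% of all genes). Psmd11, a lid subunit known in human embryonic stem cells to raise the assembly of capped proteasomes, was at 113, 84.6, 105 and 141 TPM in Gclc KO mice 1 to 4, against 61.5, 76.6, 71.2 and 82.9 TPM in Gclc WT mice 1 to 4. The order of the genotypes was complete, although Gclc KO 2 stood only just above Gclc WT 4. The rise was 1.497-fold (log2 fold change 0.58 ± 0.16 SE, adjusted p = 0.033). With batch 1 alone the call did not hold (adjusted p = 0.0606), nor did it without any 1 of 6 mice. Psmd8 averaged 157 ± 24.3 TPM in Gclc KO mice and 121 ± 6.53 TPM in Gclc WT mice without overlap (0.36, adjusted p = 0.076). Psmd4, a ubiquitin receptor, had a log2 fold change of 0.31 (adjusted p = 0.12). Psmd1, a scaffold of the base, had the largest p of the class (0.18, adjusted p = 0.40).

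**Figure D3:**
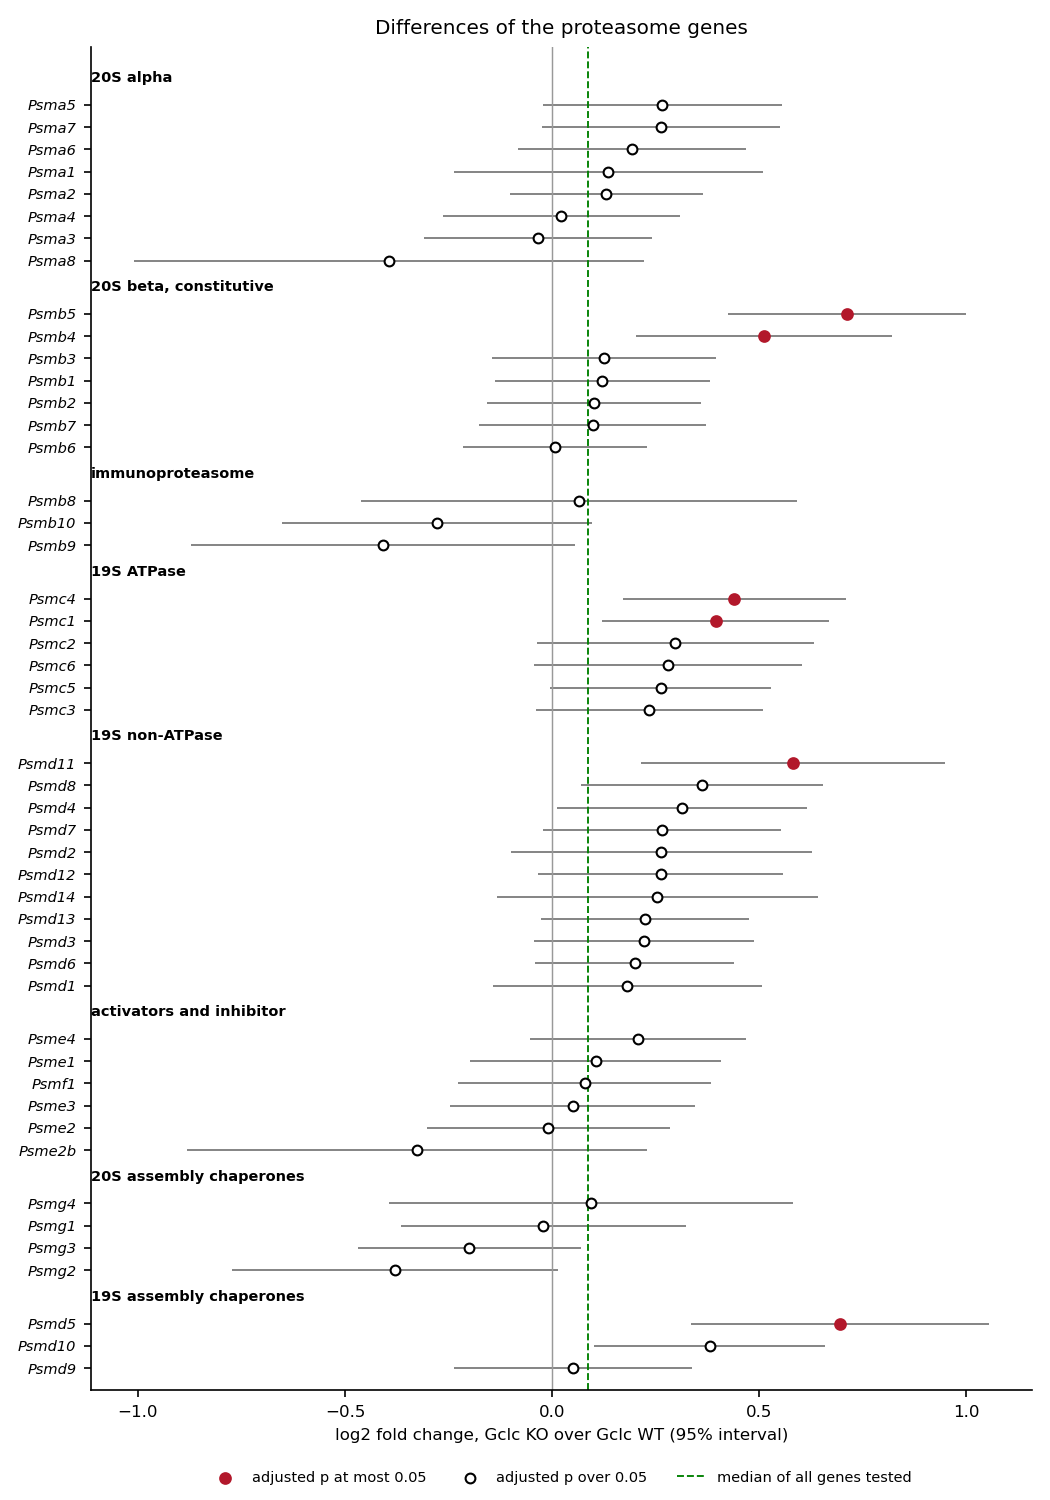
Log2 fold change (Gclc KO over Gclc WT) of each proteasome gene with its 95% interval from limma, by class. Filled red points have an adjusted p of at most 0.05, and the dashed line is the median of all genes tested, 0.09. All 17 Psm-named cap genes lie to the right of the dashed line, while Psmb9, Psmb10 and most 20S assembly chaperones lie to the left.

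The immunoproteasome genes were not called, and the log2 fold changes of Psmb9 and Psmb10 were negative. Without Gclc WT 3 that of Psmb9 was -0.24, and among the 5 mice without Xist it was 0.00091, so its size depended on the mice compared. Over the 21 alternatives it ranged from -0.58 to 0.00091. Psmb8 was at 52.2, 28.8, 37.2 and 40.5 TPM in Gclc KO mice 1 to 4, against 34.3, 29.5, 58.2 and 31.9 TPM in Gclc WT mice 1 to 4 (log2 fold change 0.06, 95% interval -0.46 to 0.59). Psmb9 was at 15.7, 11.4, 11.8 and 17.4 TPM in Gclc KO mice 1 to 4, against 19.7, 14.6, 27.1 and 15.6 TPM in Gclc WT mice 1 to 4 (-0.41, adjusted p = 0.19). Psmb10 was at 34.9, 25.8, 23.5 and 22.6 TPM in Gclc KO mice 1 to 4, against 32.8, 27.9, 40.6 and 28.6 TPM in Gclc WT mice 1 to 4 (-0.28, adjusted p = 0.26). The genotypes overlapped in all 3 genes, and each was highest in Gclc WT 3. That mouse also had the highest sum of monocyte and neutrophil markers. In that list S100a8, S100a9, Retnlg and Ly6c2 were highest in Gclc WT 3, while Itgam, Lyz2 and Csf3r were highest in Gclc KO 3. The part of those markers was not tested. By limma, none of the 3 had an unadjusted p under 0.05. The libraries of batch 1 alone gave a lower call for Psmb9 (-0.58, adjusted p = 0.035), and those of batch 2 alone did not.

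Each immunoproteasome subunit was then set against the subunit whose place it takes, since a ratio within a mouse does not depend on scaling. The ratio of Psmb8 to Psmb5 was 0.274, 0.209, 0.231 and 0.218 in Gclc KO mice 1 to 4, against 0.343, 0.305, 0.596 and 0.281 in Gclc WT mice 1 to 4. Every Gclc KO mouse was below every Gclc WT mouse, although Gclc KO 1 and Gclc WT 4 were close. The difference was -0.65 on the log2 scale, a 1.57-fold lower ratio. Psmb5, its denominator, was called higher (log2 fold change 0.71), while Psmb8 was not called (0.06). A two-sided exact permutation test over the 70 arrangements of 8 mice gave p = 0.0286, the smallest the design allows, and after adjustment over the 3 ratios p = 0.0857, which did not pass. Without Gclc WT 3 the difference was -0.41, and among the 5 mice without Xist it was -0.34.

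The ratio of Psmb9 to Psmb6 ranged from 0.0888 to 0.128 in Gclc KO mice and from 0.107 to 0.204 in Gclc WT mice. Its difference was -0.44 (exact permutation p = 0.143, adjusted p = 0.143). The ratio of Psmb10 to Psmb7 ranged from 0.105 to 0.161 in Gclc KO mice and from 0.141 to 0.237 in Gclc WT mice, with a difference of -0.39 (exact permutation p = 0.143, adjusted p = 0.143). Both overlapped between genotypes. Batch 1 gave -0.65 for each of Psmb8 to Psmb5 and Psmb9 to Psmb6 (exact permutation test, adjusted p = 0.0429 for both) and -0.40 for Psmb10 to Psmb7, and batch 2 gave -0.65, -0.26 and -0.39 (adjusted p = 0.0857, 0.514 and 0.3).

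**Figure D4:**
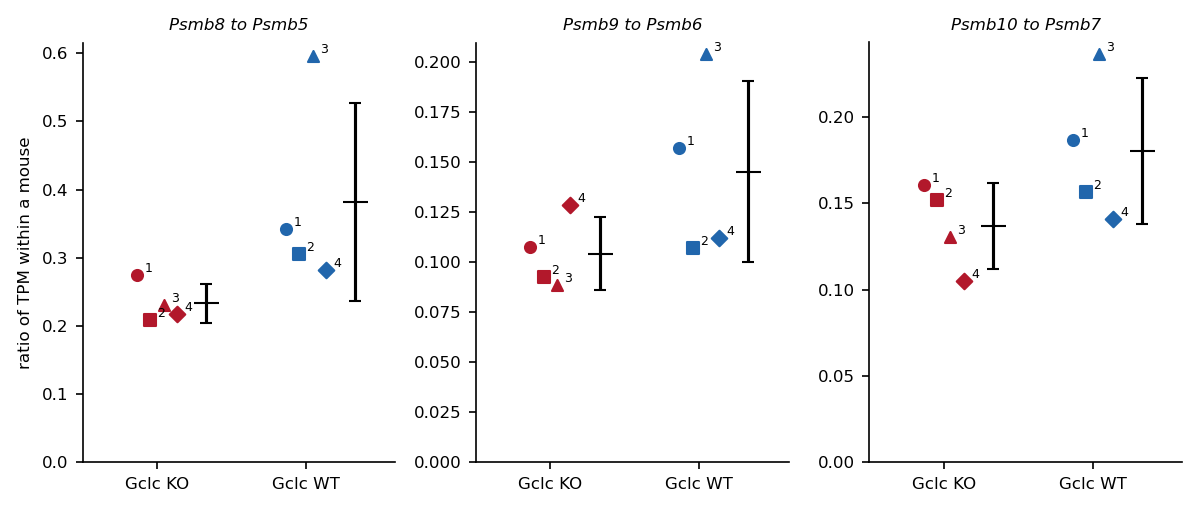
Ratio of TPM within a mouse of each immunoproteasome gene to the constitutive gene it replaces, with Gclc KO mice in red and Gclc WT mice in blue, numbered by mouse. Bars show the mean and SD of 4 mice. All 4 Gclc KO mice lie below all Gclc WT mice for Psmb8 to Psmb5 only, and Gclc WT 3 is highest in all 3 panels.

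The stretches upstream of the transcription start are shown for Psmb5, which rose, for Psmb6, which was not called, and for Psmd5, a chaperone that rose. They are RefSeq sequences of GRCm38.p6, 5′ to 3′ on the gene's strand, and 40 of the 48 members had a window there. Capitals mark matches, on either strand, to an antioxidant response element core bound by NRF2 and NRF1 (TGACNNNGC), an interferon-stimulated response element (GAAA, any 2 bases and GAAA) or a CCAAT box (CCAAT), which may overlap. Psmb5, chr14:54617996-54618245, minus strand, and Psmd5, chr2:34870963-34871212, minus strand, are given for the 250 bases before the start. Psmb6, chr11:70525333-70525362, plus strand, is given for 30 bases around its start.
Psmb5: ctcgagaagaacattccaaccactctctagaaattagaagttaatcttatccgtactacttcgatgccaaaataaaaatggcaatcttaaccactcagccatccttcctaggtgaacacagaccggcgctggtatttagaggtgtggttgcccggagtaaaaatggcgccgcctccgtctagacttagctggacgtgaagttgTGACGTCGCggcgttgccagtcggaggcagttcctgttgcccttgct
Psmb6: gcggactaaagagagTGACGGAGCgcttta
Psmd5: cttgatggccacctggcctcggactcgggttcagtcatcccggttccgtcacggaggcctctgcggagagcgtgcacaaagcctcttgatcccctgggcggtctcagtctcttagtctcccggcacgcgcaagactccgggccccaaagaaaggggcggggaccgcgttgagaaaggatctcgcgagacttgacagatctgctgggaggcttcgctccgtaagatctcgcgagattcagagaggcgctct

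An antioxidant response element core stood from -47 to -39 in the Psmb5 stretch and directly before the start in that of Psmb6, so both catalytic subunits carried the letters while only Psmb5 was called. In all, 5 of 40 members (12.5%) held this motif within 250 bases of the start (Psmb5, Psmb6, Psmc6, Psmd12 and Psmd9), against 10.2% of 32851 windows of the same length. All 6 called members had a window, and Psmb5 was the only called one with the motif. An interferon-stimulated response element was found in 3 members (7.5%, against 2.98%), namely Psmb3, Psmd4 and Psmd9. A CCAAT box was found in 13 (32.5%, against 33.8%). The Psmd5 stretch held none of these letters. These are matches of letters and not bound sites.

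None of the 6 genes of activators and inhibitor was called, and by limma none had an unadjusted p under 0.05. Psme1 and Psme2 encode the interferon-inducible PA28 ring that opens the core without ATP. Psme1 averaged 177 ± 28.5 TPM in Gclc KO mice and 164 ± 13.8 TPM in Gclc WT mice (log2 fold change 0.10), and Psme2 138 ± 18.8 TPM in Gclc KO mice and 139 ± 15.9 TPM in Gclc WT mice (-0.01). Both were highest in Gclc KO 1, at 215 and 166 TPM, unlike the 3 immunoproteasome genes. Psme2b, a retrotransposed copy of Psme2 with which it may share reads, was at 1.45 ± 0.57 TPM in Gclc KO mice and 2.10 ± 0.86 TPM in Gclc WT mice. Psme3, the nuclear PA28 gamma, had a log2 fold change of 0.05, and Psmf1, the inhibitor PI31, of 0.08. Psme4, the nuclear activator PA200, averaged 46.8 ± 6.46 TPM in Gclc KO mice and 40.1 ± 0.57 TPM in Gclc WT mice (0.21, adjusted p = 0.23), with Gclc KO 2 below all Gclc WT mice.

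Of the 3 chaperones that bind ATPases while the cap is built, only Psmd5 was called. Psmd5 (S5b), which holds Psmc1 and Psmc2 during assembly, was at 45.8, 31.3, 39.0 and 52.4 TPM in Gclc KO mice 1 to 4, against 24.6, 22.6, 29.3 and 24.7 TPM in Gclc WT mice 1 to 4. All Gclc KO mice were higher, Gclc KO 2 and Gclc WT 3 being the closest. The rise was 1.62-fold (log2 fold change 0.70 ± 0.16 SE, adjusted p = 0.016). It was called in 20 of 21 alternatives, the exception being the fit without Gclc WT 2 (adjusted p = 0.0536). Psmd10 (gankyrin), which binds Psmc4 and is an oncoprotein in liver cancer, was at 11.6, 15.5, 14.6 and 17.1 TPM in Gclc KO mice 1 to 4, against 10.7, 11.5, 10.4 and 11.3 TPM in Gclc WT mice 1 to 4. The genotypes did not overlap, but the gene was not called (0.38, adjusted p = 0.057), and here Gclc KO 1 and not Gclc KO 2 was the lowest Gclc KO mouse. Psmd9 had a log2 fold change of 0.05 (adjusted p = 0.81).

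The 4 chaperones of core assembly were not called, and by limma none had an unadjusted p under 0.05. Psmg1 and Psmg2 form a pair that helps build the alpha ring, as do Psmg3 and Psmg4. Psmg2 averaged 13.3 ± 3.51 TPM in Gclc KO mice and 17.3 ± 1.92 TPM in Gclc WT mice (log2 fold change -0.38, adjusted p = 0.15), and Psmg3 12.9 ± 1.07 TPM in Gclc KO mice and 15.02 ± 1.93 TPM in Gclc WT mice (-0.20, adjusted p = 0.26). Psmg1 had a log2 fold change of -0.02 and Psmg4 of 0.09. The genotypes overlapped in all of them. The median of the 4 was -0.11, against 0.38 for the 3 chaperones of the cap, a difference that was not tested.

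The number of called members depended on the mice. Without Gclc KO 1, 2, 3 or 4 in turn, 3, 10, 3 and 2 members were higher, and without Gclc WT 1, 2, 3 or 4 in turn, 2, 1, 3 and 4. Over these 8 fits, 6.19% to 16.4% of all genes tested were called higher. The 10 members without Gclc KO 2 were 20.8%, against 12.4% of all genes in that fit. Among the 5 mice without Xist, 13 members were higher (27.1%, against 15.6% of all genes), and 14 were higher with each library as a unit and the mouse as a random effect (29.2%, against 18.4%). The libraries of a mouse are not further mice, so the last count is not on a par with those of fits on mice. For Gclc, that limma fit gave an adjusted p of 1.84e-14, against 0.00061 on mice, at a log2 fold change of -2.17 in both. None of these fits called a member lower.

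**Figure D5:**
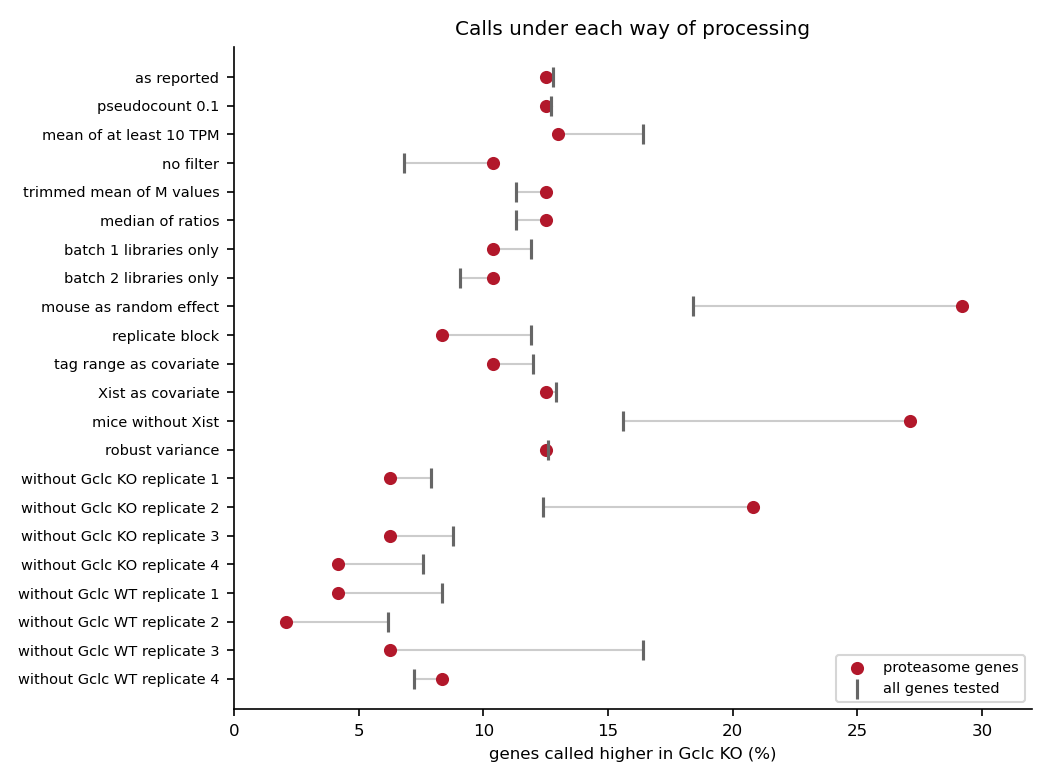
Percentage of genes called higher in Gclc KO livers under each way of processing (rows), for the proteasome genes (red points) and for all genes tested (grey ticks). The points lie within a few percentage points of the ticks in most rows, at 12.5% and 12.8% as reported. They lie well to the right without Gclc KO 2 (20.8% and 12.4%) and among mice without Xist (27.1% and 15.6%). So they do with the mouse as a random effect (29.2% and 18.4%), a fit on libraries and not on mice. Without Gclc WT 3 the point lies to the left (6.25% and 16.4%).

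Genes of other symbols were counted by list, covering proteins associated with the proteasome, regulators of its genes, ubiquitin and delivery, and the interferon-gamma response with MHC class I processing. Of these, 14 of 56 were higher and 2 lower (25% higher, against 12.8% of all genes). Of the 13 proteasome-associated genes, 4 were higher (30.8%) and none lower. By limma, 5 of the 13 were higher and 2 lower at an unadjusted p under 0.05, against 2541 higher and 1558 lower of all 11284 genes. Zfand5, which binds the proteasome and stimulates it, averaged 13.8 ± 2.84 TPM in Gclc KO mice and 7.22 ± 1.06 TPM in Gclc WT mice (log2 fold change 0.83, adjusted p = 0.0077). The ubiquitin ligase Ube3c, which extends chains on stalled substrates at the proteasome (0.47, adjusted p = 0.014), and the cap-bound thioredoxin Txnl1 (0.54, adjusted p = 0.022) also rose, the call of Txnl1 holding in 16 of 21 alternatives. Zfand2a, an arsenite-inducible proteasome-binding protein, rose by 0.59 on the log2 scale (adjusted p = 0.042), a call that held in 6 of 20 alternatives. Shfm1 (Sem1), the smallest lid subunit, was not called and went the other way from the rest of the cap (-0.36, adjusted p = 0.052), and it was lower after either scaling (-0.45 and -0.44, adjusted p = 0.021 for both). The ubiquitin receptor Adrm1 averaged 101 ± 20.9 TPM in Gclc KO mice and 79.97 ± 5.76 TPM in Gclc WT mice (0.31, adjusted p = 0.16). Pomp, which matures the core, averaged 231 ± 34.4 TPM in Gclc KO mice and 208 ± 9.93 TPM in Gclc WT mice (0.13, adjusted p = 0.49).

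Of 11 genes that control proteasome genes, 2 were higher and 1 lower. The share higher was 18.2%, against 12.8% of all genes, of which 8.61% were lower. Mafk, a small Maf partner of NRF1 and NRF2, averaged 15.3 ± 4.09 TPM in Gclc KO mice and 7.44 ± 1.48 TPM in Gclc WT mice (log2 fold change 0.93, adjusted p = 0.013). Keap1, the adaptor that targets NRF2 for degradation, was higher (0.43, adjusted p = 0.032), a call that held in 14 of 21 alternatives. Nfe2l1 was at 45.3, 33.2, 39.3 and 41.2 TPM in Gclc KO mice 1 to 4, against 49.4, 53.9, 54.7 and 50.9 TPM in Gclc WT mice 1 to 4. Every Gclc KO mouse was lower (-0.39 ± 0.11 SE, adjusted p = 0.037), and the call held in 9 of 21 alternatives. Nfe2l2 averaged 34.5 ± 4.46 TPM in Gclc KO mice and 31.9 ± 5.35 TPM in Gclc WT mice (0.11, adjusted p = 0.60). Nfya (0.32, adjusted p = 0.070) and Nfyb (-0.35, adjusted p = 0.073), subunits of a factor that binds CCAAT boxes, were not called.

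Of 16 genes of ubiquitin and delivery to the proteasome, 5 were higher (31.25%, against 12.8% of all genes) and none lower. By limma, 6 of the 16 were higher and 1 lower at an unadjusted p under 0.05, against 2541 higher and 1558 lower of all 11284 genes. The 5 were the ubiquitin and ribosomal fusion gene Rps27a (log2 fold change 0.55, adjusted p = 0.011), the shuttle factors Ubqln4 (0.57, adjusted p = 0.012) and Ubqln2 (0.78, adjusted p = 0.015), the Vcp cofactor Ufd1l (0.38, adjusted p = 0.026) and Sqstm1. Sqstm1 (p62), a receptor of ubiquitinated cargo and an NRF2 target, was at 472, 272, 434 and 680 TPM in Gclc KO mice 1 to 4, against 195, 253, 225 and 240 TPM in Gclc WT mice 1 to 4. The genotypes did not overlap, and Gclc KO 2 was again the lowest Gclc KO mouse (0.96 ± 0.24 SE, adjusted p = 0.024). Rps27a, Ubqln4 and Ubqln2 were called in all 21 alternatives, Sqstm1 in 16 and Ufd1l in 15.

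Of 16 genes of the interferon-gamma response and MHC class I processing, 3 were higher and 1 lower. The share higher was 18.75%, against 12.8% of all genes, of which 8.61% were lower. Calr, a chaperone of the endoplasmic reticulum, averaged 1428 ± 117 TPM in Gclc KO mice and 836 ± 105 TPM in Gclc WT mice (log2 fold change 0.78, adjusted p = 0.0062). The interferon-inducible GTPase Igtp (0.78, adjusted p = 0.031) and the peptide loading chaperone Tapbp (0.48, adjusted p = 0.041) were higher, in calls that held in 13 and 9 of 21 alternatives and with overlapping genotypes for both, while Gbp2 was not called (1.03, adjusted p = 0.12).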

How the data were processed

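Livers of 4 Gclc KO and 4 Gclc WT mice were compared, with 4 libraries per mouse from batches 1 and 2 as the labels number them. The authors deposited expression values in TPM, scaled to a fixed total within each library (totals of 999315 to 999534), under a name that says normalized counts. The submitters' notes name bcl2fastq 2.2, and for the aligner, quantifier and genome build the sources used here give no name. TPM keep no depth. No table column lacked a sample (0), and 75 rows repeating a symbol were dropped. All 48 members matched RefSeq by Entrez identifier and symbol.

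Libraries were averaged per mouse, genes averaging 1 TPM or more kept, and log2(TPM + 1) compared with limma 3.58.1 in R 4.3.3 (mean-variance trend, two-sided, no covariates, Benjamini-Hochberg). The study does not state its model, so the 1 TPM minimum of the members was used. The fit was tested on simulated data. Ratios within a mouse were compared by exact permutation.

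Members and lists were chosen with earlier results of these data known. Genes named were Gclc, the catalytic subunits, all activators, inhibitors and chaperones, in other classes the 3 smallest p and the largest, in pathway lists the 5 smallest p, and Nfe2l1, Nfe2l2, Pomp, Adrm1 and Sqstm1. Of the listed symbols, Sem1, Ecpas and Ufd1 were found under older names, and Paaf1, Ighm and Tf were not analysed. A gene counted in a pathway list is not reported here by name. Alternatives covered the pseudocount, filter, scaling, batches, random effect, replicate block, tag range, Xist, robust variance and each mouse left out.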

Additional observations from a re-analysis of the deposited data

Results flagged for a closer look

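Over 154 groups of 4 mice, 2 held a mouse far from the other 3, or 1.3%, where chance gives about 5%. Psme2 was at 7.38 on the log2(TPM + 1) scale in Gclc KO 1, against 6.996 to 7.041 in the remaining 3. In Gclc WT 3, Tapbp was at 6.28, and the remaining Gclc WT mice had 5.73 to 5.79.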

How the results depend on the processing

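Gclc and Psmb5 kept their direction and call in all 21 alternatives. The count of 6 higher members was 5 to 6 under another pseudocount, filter, scaling, batch, covariate or variance model. It was 14 with each library as a unit and the mouse as a random effect, and 13 among mice without Xist, where the cap median was 0.43. Leaving out each mouse gave 1 to 10. The count of lower members was 0 except 1 (Psmb9) in batch 1. Pathway genes called were 16, against 29 with the random effect and 8 to 18 on leaving out a mouse. In batch 1 alone the ratios of Psmb8 to Psmb5 (-0.652) and Psmb9 to Psmb6 (-0.646) passed the threshold. The cause of these changes was not tested. With the replicate number as a block, 4 members were higher, with 1341 higher and 874 lower among all genes, and no ratio passed (an exact sign-flip test, smallest p = 0.125). Whether the numbers pair the mice is not known. Deviations of same-numbered mice correlated across genes at 0.06, -0.12, 0.35 and 0.26. Gclc KO 3 and Gclc KO 4 correlated best with the Gclc WT mouse of their own number, and Gclc KO 1 and Gclc KO 2 did not. With 4 mice of each genotype, these values cannot decide it. Of 1550 alternative values of single genes, 41 had the other sign from the reported value, and none of these was called in either. Depth is unknown, so no limit from counting can be given, and Psma8 and Psme2b near 1 TPM are the least certain members.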
